A study of Sus scrofa with 57 samples.

Results

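The 10 genes described here serve the lipid droplet, lipolysis, glycerol handling and fatty acid entry of the fat cell, except TUSC5, a membrane protein of fat cells. They are PLIN1, PLIN4, CIDE-C, LIPE, PNPLA2, AQP7, GPD1, CD36, FACL2 and TUSC5, taken by name from 25285 gene identifiers, of which 10190 had a mean level of at least 1 FPKM (the number of fragments scaled for transcript length and for the fragments mapped in the library) and were tested. Of the 10 genes, 9 were found by the symbol written in the expression tables. PNPLA2 is listed there under its older name ATGL and was found by its identifier, ENSSSCG00000012841. CIDE-C is the name the tables use for CIDEC, and FACL2 the one for ACSL1. All 10 passed the filter on low values.

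The cells were mature adipocytes freed with collagenase from the retroperitoneal fat of lean and obese pigs. The animals came from the F2 generation of a cross between Duroc pigs and Göttingen minipigs, with no gene altered and no agent given to either group, and they had been picked from the 2 ends of the range of fatness. RNA was sequenced from 5 lean and 5 obese males, and pig-572, an obese male, gave 2 libraries, whose levels were averaged. Methylated DNA was captured and sequenced (mDNAcap) from males and females, with 11 lean and 11 obese libraries in the deposited comparison, and the same material went into reduced representation bisulfite sequencing (RRBS). The labels give no age for single animals.

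In fat cells, triglyceride is kept in one large droplet whose surface is covered by perilipins. When fat is mobilised, PNPLA2 removes the first fatty acid from triglyceride, LIPE the next, and a monoglyceride lipase the last, which leaves glycerol that exits through the channel AQP7. In the other direction, CD36 helps fatty acids across the cell membrane, FACL2 couples them to coenzyme A, and GPD1 makes the glycerol phosphate to which they are joined.

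AQP7 was the gene whose level differed most between the groups, 1.76-fold higher in obese pigs. It alone of the 10 had lean and obese values that did not overlap on the scaled FPKM, against 4.16% of all genes tested. With FPKM as deposited the values of AQP7 overlapped too. TUSC5 was 1.61-fold higher in obese pigs with overlapping values. For the other 8 genes the fold of the group means lay between 0.831 and 1.22, and each 95% interval of the log2 fold change included 0. Of the 10 genes, 0 passed the adjusted threshold of 0.05 in limma, against 0.00981% of all genes tested, and 2, AQP7 and TUSC5, had an unadjusted p under 0.05, against 20.8% of all genes tested. In DNA methylation, the surroundings of PNPLA2 held 3 captured regions and up to 4 RRBS regions within 50000 bases, all with more methylation in obese pigs, whereas PLIN4 had 1 RRBS region and the other 8 genes had none. Of all loci, 28.3% had a captured region that near, and 5.01% and 16.0% an RRBS region with 5 and 3 pigs a group required. Of all regions, 29.3% of the captured and 66.1% and 61.1% of the RRBS regions were higher in obese pigs. The captured regions near PNPLA2 lay in other genes. All 3 passed the adjusted threshold in the main limma fit, as did 7118 of all 7401 regions, which the authors had selected from the same animals. With a covariate added after seeing the data, 0 of the 7401 regions passed it.

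The short stretches of DNA next to PNPLA2 are shown because they lie in or at the edge of the RRBS region closest to any of the 10 genes, 315 bases from the locus. They were copied from a supplementary table of the study, shortened to 30 bases, and lie on chromosome 2 of Sscrofa10.2 at chr2:155844-155873 and chr2:155898-155927. Capitals mark each CpG, the dinucleotide in which RRBS reads methylation. The source does not give the strand.

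PNPLA2 window A: cttCGgatcagaccCGacCGcacctaagat

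PNPLA2 window B: agaagactgggtgcaCGtggggaCGggaCG

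Counted in the order of the coordinates, the first CpG of window A falls on base 155847, the first base of the RRBS region in the table that required 3 pigs a group. The next CpG of window A falls on base 155858, the first base of the region in the table that required 5 pigs a group, so that window A lies only partly in that region. Each window holds 3 CpGs, and those of window B all lie within both regions.

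The libraries behind the expression values were alike in the number of genes seen. Between 9709 and 10179 genes reached an FPKM of 1 in lean libraries and between 8945 and 10287 in obese libraries. The depth in reads is unknown from these values. The bounds that cufflinks gave for the 10 genes lay within 0.617% to 5.76% of the value. They do not cover differences between libraries of the same pig, which reached a ratio of 1.53 for TUSC5 in pig-572. Every other pig had a single library, so the spread between pigs includes such differences. Dividing by size factors of 0.693 to 1.23 placed the libraries on one scale, and every FPKM below is on that scale. Nothing in the labels ties a library to a run or day of RNA work.

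The 10 genes differed widely in level. CD36 was the most abundant, with 1265 ± 340 FPKM over the 10 pigs (mean ± SD), followed by CIDE-C with 446 ± 87.8, and CD36 was above CIDE-C and CIDE-C above GPD1 in all 10 pigs. GPD1 (332 ± 65.3), PLIN1 (314 ± 60.1) and FACL2 (292 ± 103) were not separable, since GPD1 was above PLIN1 in 5 of 10 pigs and PLIN1 above FACL2 in 6. LIPE (167 ± 39.9) and PLIN4 (142 ± 27.4) came next and kept their order in 7 of 10 pigs. TUSC5 (85.4 ± 32.8), PNPLA2 (51.9 ± 12.5) and AQP7 (39.0 ± 12.8) were the lowest, with PNPLA2 above AQP7 in 6 of 10 pigs.

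**Figure D1:**
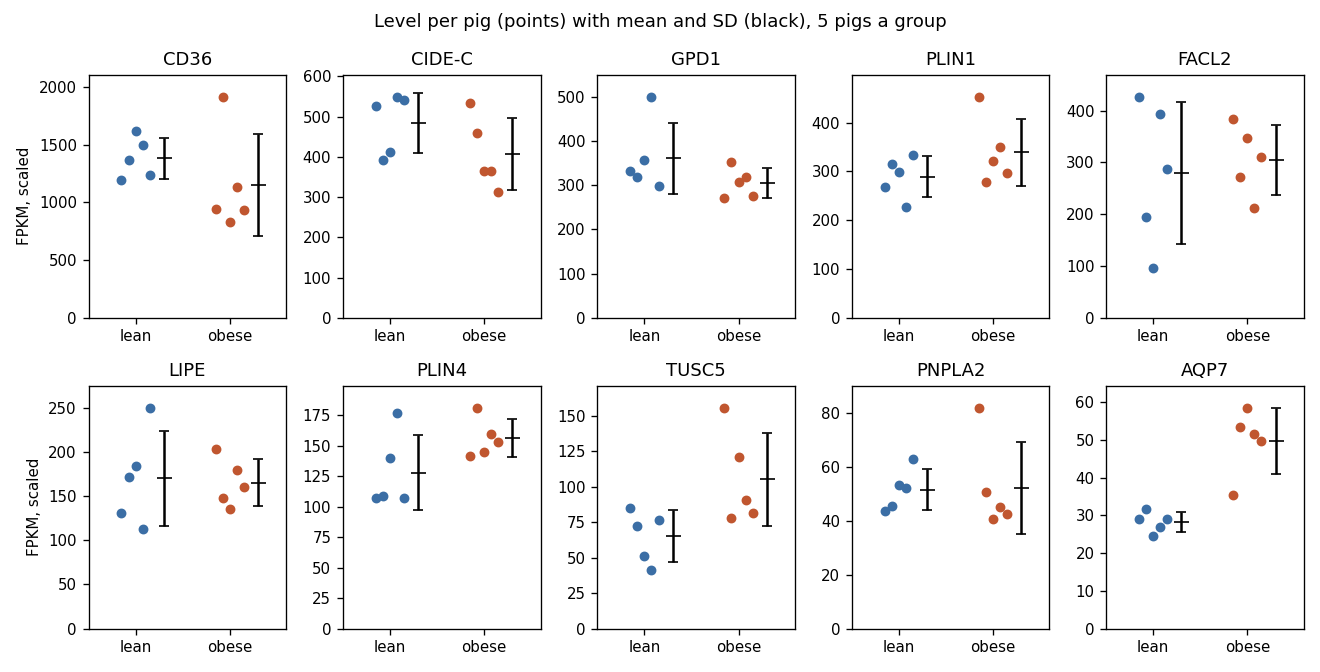
Scaled FPKM of each gene in each pig (y axis, linear from 0) for lean and obese pigs (x axis), ordered by mean level. Points are pigs and black bars the mean and SD of 5 pigs, and AQP7 is the panel in which every obese point (35.4 to 58.5) lies above every lean point (24.7 to 31.8).

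Among the genes of glycerol handling, AQP7 stands first. In lean pigs its levels were 24.7, 26.8, 29.1, 29.2 and 31.8 FPKM, and in obese pigs 35.4, 49.8, 51.5, 53.5 and 58.5 FPKM. The highest lean pig was pig-407 and the lowest obese pig was pig-433, and the groups did not overlap on this scale. Of all genes tested, 2.35% had obese values entirely above the lean values and 4.16% were without overlap in either direction. The mean was 28.3 ± 2.69 FPKM in lean and 49.7 ± 8.65 in obese pigs (SD, n = 5), and the log2 fold change was 0.78 (95% interval 0.47 to 1.09). The two-sided exact permutation test gave p = 0.00794, the smallest that 5 against 5 pigs allow. The separation depends on the size factors. With FPKM as deposited, lean pig-402 (32.3) and lean pig-525 (31.96) lay above obese pig-433 (31.9), the exact permutation p was 0.0238 and the adjusted p in limma 0.224. In limma on the scaled values, AQP7 ranked 28 of 10190 genes by p, with an adjusted p of 0.0772. It passed the threshold without lean pig-402 (adjusted p = 0.0461 in limma) and with the libraries of pig-572 entered separately (adjusted p = 0.0343 in limma), a fit that counts one animal more than once.

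GPD1, the cytosolic glycerol phosphate dehydrogenase, had levels of 297, 317, 331, 356 and 499 FPKM in lean pigs and of 270, 276, 306, 318 and 353 FPKM in obese pigs. Of the obese pigs, 3 lay within the lean range and 2 below it, and pig-525 was the highest of the lean pigs. The log2 fold change was -0.22 (95% interval -0.59 to 0.15), and the exact permutation p was 0.159.

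The droplet coat and fusion genes did not move together. PLIN1, the perilipin that covers the droplet and holds back lipolysis, had 227, 268, 299.7, 316 and 334 FPKM in lean pigs and 277, 297, 322, 349 and 453 FPKM in obese pigs. The highest value was that of obese pig-433, and the groups overlapped. Its log2 fold change was 0.22 (95% interval -0.16 to 0.60), with an exact permutation p of 0.214.

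PLIN4, a perilipin of the droplet surface in fat and muscle, had 107, 107, 109, 140 and 177 FPKM in lean pigs and 141, 145, 153, 160 and 181 FPKM in obese pigs. Every obese pig was above 4 of the 5 lean pigs, while lean pig-525 lay within the obese range. The log2 fold change was 0.31 (95% interval -0.06 to 0.68), with an exact permutation p of 0.0873.

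CIDE-C, which joins droplets into larger ones, had 392 and 412 FPKM in the lowest lean pigs and 541 and 549 in the highest, with pig-402 between them, and 312, 364, 365, 460 and 535 FPKM in obese pigs. Of the obese pigs, 3 were below the lowest lean pig and the others lay within the lean range. The log2 fold change was -0.26 (95% interval -0.67 to 0.15), with an exact permutation p of 0.190.

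TUSC5, a membrane protein of fat cells known for its part in the traffic of the glucose transporter GLUT4, had 41.1, 51.1, 72.5, 76.7 and 85.2 FPKM in lean pigs. In obese pigs it had 78.1, 81.8, 90.5, 121 and 156 FPKM. Of the obese pigs, 3 were above the highest lean pig, and pig-433 was the highest of all. The mean was 65.3 ± 18.5 FPKM in lean and 105 ± 32.8 in obese pigs (SD, n = 5), and the log2 fold change was 0.68 (95% interval 0.13 to 1.24). The exact permutation p was 0.0317 and the adjusted p in limma 0.185. The exact permutation p was 0.0794 with FPKM as deposited, 0.0873 without the second library of pig-572 and 0.0519 with both entered separately. The libraries of pig-572 gave 64.7 and 98.9 FPKM for TUSC5, a ratio of 1.53, which was the widest of the 10 genes, for which the ratios otherwise ran from 0.933 to 1.30.

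The lipases did not differ between the groups beyond the spread between pigs. LIPE, the hormone-sensitive lipase, had 113, 131, 171, 184 and 250 FPKM in lean pigs and 135, 147, 160, 179 and 203 FPKM in obese pigs. All obese values lay within the lean range. Its log2 fold change was 0.00069, with a 95% interval of -0.48 to 0.48, so a difference of up to about that size in either direction was not detectable.

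PNPLA2, the lipase that opens the breakdown of triglyceride, had 43.7, 45.7, 52.2, 53.3 and 63.2 FPKM in lean pigs and 40.7, 42.7, 45.2, 50.6 and 82.1 FPKM in obese pigs. Obese pig-433 was the highest by a wide margin, and the other 4 obese pigs were below the median lean pig. The log2 fold change was -0.02 (95% interval -0.45 to 0.41), with an exact permutation p of 0.913. Without pig-433 it was -0.19, with an adjusted p of 0.434 in limma.

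Of the genes for fatty acid entry and activation, CD36, a fatty acid receptor and transporter, had 1195, 1239, 1363, 1492 and 1617 FPKM in lean pigs. In obese pigs it had 826, 931, 939, 1132 and 1913 FPKM. Of the obese pigs, 4 lay below the lowest lean pig and pig-473 above the highest. The log2 fold change was -0.33 (95% interval -0.85 to 0.19), with an exact permutation p of 0.183. Without pig-473 it was -0.53, with an adjusted p of 0.167 in limma.

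FACL2, a long-chain acyl-CoA synthetase, had 95.8, 195, 287, 393 and 427 FPKM in lean pigs and 211, 271, 311, 347 and 385 FPKM in obese pigs. The lean pigs spread over the whole range, with pig-413 the lowest. The log2 fold change was 0.28 (95% interval -0.56 to 1.12), the widest interval of the 10, and it turned to -0.06 without pig-413.

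**Figure D2:**
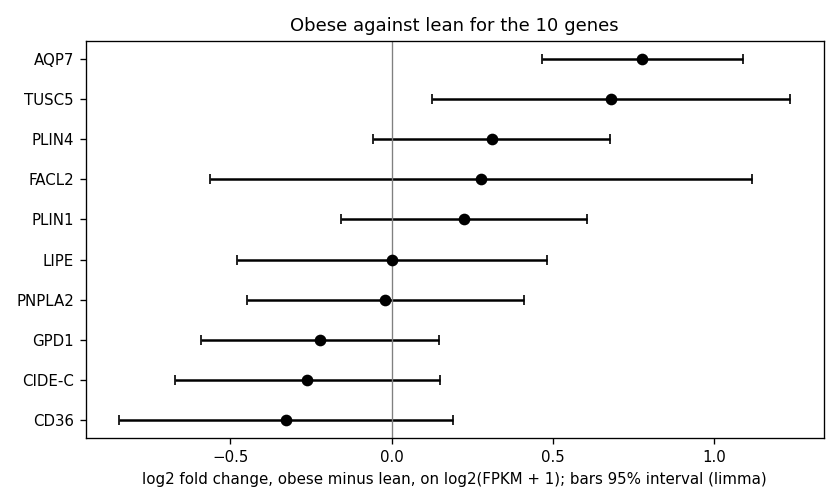
Log2 fold change of obese minus lean pigs (x axis, on log2 of FPKM plus 1) for the 10 genes (y axis), with points for the limma estimate and bars for its 95% interval. The intervals of AQP7 (0.47 to 1.09) and TUSC5 (0.13 to 1.24) lie above 0, and the other 8 cross it.

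Some pairs of the genes varied together or against each other between pigs. Over the 10 pigs, on the log2 scale, PLIN1 and TUSC5 had a Pearson r of 0.79 and PLIN1 and LIPE one of 0.72, and with the group means removed the values were 0.74 and 0.81. GPD1 ran against TUSC5 (r = -0.80) and against PLIN1 (r = -0.78), and with the group means removed the values were -0.74 and -0.72. These were the 4 pairs with the largest r in either direction over the 10 pigs. With the group means removed, the 3 largest were PLIN4 and GPD1 (0.93), PLIN4 and TUSC5 (-0.87) and PNPLA2 and AQP7 (-0.81), pairs for which r over the 10 pigs was 0.40, -0.15 and -0.39. These are descriptions of 10 animals whose libraries share one scaling. The genes whose pattern was most like the mean of the 10 standardised levels were USP6NL (r = 0.99), the unnamed ENSSSCG00000021035 (0.92), DAB2 (0.91), CEBPB (0.90) and C9 (0.90), over 10 pigs. With FPKM as deposited, r was 0.92 for USP6NL and 0.44 for C9, so these values depend on the scaling. The genes were picked for the highest r among all other genes tested, and such a pick gives high values by itself. USP6NL had only 1.26 FPKM in lean and 1.41 in obese pigs, near the filter of 1.

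Around the 10 genes stand 72 others of the same pathways that could be matched of 84 listed, and 60 of them were tested. Of these, 9 were higher and 8 lower in obese pigs at an unadjusted p under 0.05, which is 28.3% against 20.8% of all genes tested, and 0 passed the adjusted threshold. The 17 include MOGAT2 and AGPAT9, which passed the filter on low values only through the group in which they were higher. The medians of the log2 fold changes were 0.08 for the droplet coat and fusion genes, -0.11 for the lipolysis genes, 0.0045 for glycerol and glycerol phosphate, -0.03 for triglyceride assembly and 0.03 for fatty acid uptake and activation, against -0.0023 for all genes tested.

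**Figure D3:**
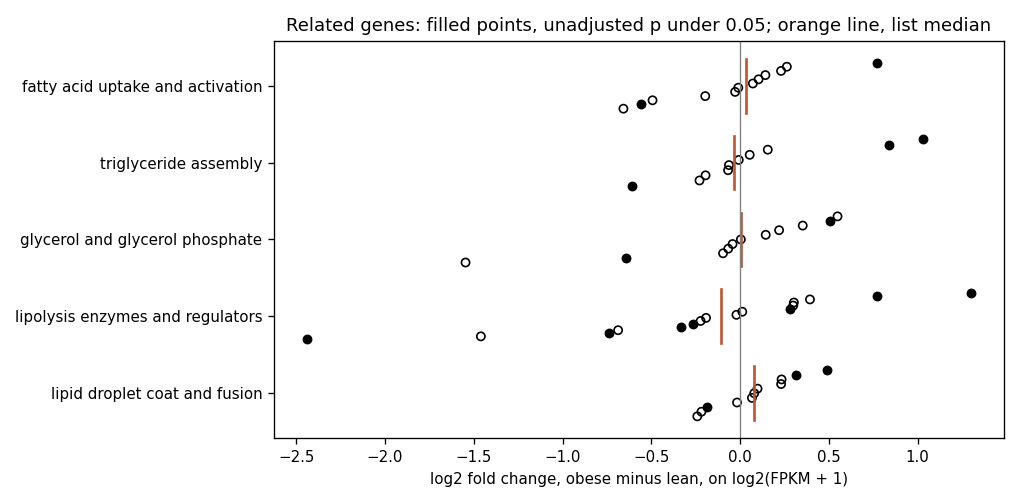
Log2 fold change of obese minus lean pigs (x axis) for each tested gene of 5 related lists (y axis). Filled points had an unadjusted p under 0.05, open points did not, and the orange line marks the median of a list, which lies between -0.11 and 0.08.

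Of the 16 lipolysis genes tested, 3 were higher and 4 lower in obese pigs at an unadjusted p under 0.05, against 20.8% of all genes tested in either direction, and 0 passed the adjusted threshold in limma. MGLL, the monoglyceride lipase that releases the last fatty acid and the most abundant of that list, had 109 ± 52.5 FPKM in lean and 179 ± 55.7 in obese pigs (log2 fold change 0.77). PNPLA3, a relative of PNPLA2, had 11.2 ± 7.30 and 24.2 ± 10.5 FPKM (log2 fold change 1.30), and LMF1, which is needed for the maturation of lipoprotein lipase, 7.10 ± 1.01 and 8.83 ± 1.06 (0.28). ABHD5, the protein that activates PNPLA2, had 55.1 ± 29.0 FPKM in lean and 29.9 ± 3.34 in obese pigs (log2 fold change -0.74).

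ANGPTL4, a secreted inhibitor of lipoprotein lipase, had 59.0 ± 51.0 and 12.7 ± 14.0 FPKM (log2 fold change -2.44), and its groups overlapped. DDHD2, a lipase first known for phospholipids, had a log2 fold change of -0.33 and PRKACB, a catalytic subunit of protein kinase A, one of -0.27. Adjusted p-values in limma for the 17 genes at an unadjusted p under 0.05 were between 0.125 and 0.228.

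Of the glycerol genes, GK, the kinase that phosphorylates glycerol, had 14.5 ± 5.91 FPKM in lean and 8.45 ± 1.62 in obese pigs (log2 fold change -0.64), and PGP, a phosphatase that acts on glycerol phosphate, 4.10 ± 1.59 and 5.94 ± 0.636 (0.50). GAPDH was the most abundant gene of that list, with a log2 fold change of 0.14. Of the droplet genes, the perilipin PLIN3 had 1.83 ± 0.831 and 2.94 ± 0.851 FPKM (log2 fold change 0.49), LDAH, a droplet-associated hydrolase, had a log2 fold change of 0.31, and FAF2, which takes part in the removal of droplet proteins, one of -0.19. CAV1, the caveolin of the cell surface, was the most abundant, with a log2 fold change of -0.24.

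Of the genes for triglyceride assembly, AGPAT2, an acyltransferase that makes phosphatidic acid, had 8.77 ± 4.50 FPKM in lean and 18.1 ± 7.19 in obese pigs (log2 fold change 1.03). MOGAT2, a monoacylglycerol acyltransferase, had 0.412 ± 0.379 and 1.64 ± 1.18 FPKM (0.84), and AGPAT9, a glycerol phosphate acyltransferase, 1.46 ± 0.824 and 0.594 ± 0.421 (-0.61). MOGAT2 and AGPAT9 each had a mean of 1.03 FPKM and passed the filter of 1 only through the group in which they were higher. Their p-values are therefore no support for a difference. AGPAT1 was the most abundant, with a log2 fold change of 0.16. Of the genes for fatty acid uptake and activation, ACSF3, a mitochondrial acyl-CoA synthetase, had 1.37 ± 0.582 and 3.06 ± 0.984 FPKM (log2 fold change 0.77). ACSL3, an acyl-CoA synthetase found at droplets, had 6.90 ± 2.22 and 4.23 ± 0.532 FPKM (-0.56), and was the 1 gene of the 60 tested whose groups did not overlap, against 4.16% of all genes tested. ACBP, the acyl-CoA binding protein, was the most abundant, with a log2 fold change of -0.66.

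Of the markers of macrophages and leukocytes, of endothelial and mural cells and of erythrocytes, only 2 of each list were tested. Of these, 0 had an unadjusted p under 0.05 in limma, and of the 7 fibroblast markers tested 1 did. The share of all genes tested was 20.8%, and 0 of these markers passed the adjusted threshold. So few genes say little about the whole lists. In bulk samples, fewer cells of a type and less RNA per cell cannot be told apart. Of 14 listed adipocyte markers, 10 were matched, and ADIPOQ, FABP4, LPL and THRSP were not. The summed level of the 10 was 295 to 352 FPKM in lean and 345 to 425 in obese pigs. RETN, ADRB3 and LEPR were under 0.1 FPKM. Among the 10, LEP, the gene of the fat cell hormone leptin, had 28.9 FPKM in lean and 118 in obese pigs without overlap (log2 fold change 2.29). Without LEP the sum was 258 to 344 FPKM in lean and 227 to 276 in obese pigs. The median log2 fold change of the 7 markers tested, LEP among them, was -0.06. Of these 7, LEP and CEBPA (log2 fold change 0.65) had an unadjusted p under 0.05 in limma, against 20.8% of all genes tested, and 0 passed the adjusted threshold. For macrophages and leukocytes, 2 of 13 matched markers reached a mean of 1 FPKM, and the sums were 3.86 to 7.66 FPKM in lean and 4.04 to 7.89 in obese pigs, with CD163, EMR1, CD4, CD8A and MS4A1 under 0.1.

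Fibroblast markers summed to 234 to 710 FPKM in lean and 254 to 628 in obese pigs, 78.9% of it COL3A1, with DPP4 and DLK1 under 0.1. All 7 tested had a lower estimate in obese pigs, with a median log2 fold change of -0.53. FBN1 (-0.92) was the 1 with an unadjusted p under 0.05 in limma. Endothelial and mural markers summed to 1.84 to 17.9 and 4.39 to 13.4 FPKM, and erythrocyte markers to 15.6 to 99.3 and 20.5 to 51.6. Genes that respond to tissue dissociation summed to 879 to 2708 FPKM in lean and 499 to 1682 in obese pigs, and 8 of the 17 tested had an unadjusted p under 0.05, all 8 lower in obese pigs, against 20.8% of all genes tested in either direction, and 0 passed the adjusted threshold in limma. The part of these markers in the differences of the droplet and lipolysis genes was not tested.

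In the capture data, regions were the authors' own selection from the same animals, so the tests below describe spread and are not independent evidence. Of all loci, 28.3% had a captured region within 50000 bases and 11.8% one higher in obese pigs, and of the 10 genes 1 had, PNPLA2. No captured region overlapped any of the 10 loci. The nearest captured regions to the other genes lay between 52200 bases (CIDE-C) and 719176 bases (CD36) away.

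The 3 captured regions near PNPLA2 were all higher in obese pigs and all lay in other genes, on both sides of the PNPLA2 locus at chr2:156290-161297. Of all 7401 regions, 27.1% were higher in obese pigs past the adjusted threshold in limma. Higher regions were 28.2% of the 7118 past the threshold, but 72.5% of the 2932 past it after scaling by the median of ratios, which moved the median log2 fold change of all regions from -0.67 to -0.37. The region at chr2:145001-146000, 10290 bases away in CD151, had a lowest, median and highest normalized count of 4.04, 13.6 and 19.6 in 11 lean libraries and of 8.72, 18.4 and 26.9 in 11 obese libraries. The groups overlapped, with 4 obese libraries above the highest lean one. The mean was 11.3 ± 5.65 in lean and 17.8 ± 6.27 in obese pigs, the log2 fold change 0.69 (95% interval 0.16 to 1.22) and the permutation p 0.0212.

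The region at chr2:202801-203800, 41504 bases away in TALDO1, had a lowest, median and highest count of 2.28, 8.79 and 13.6 in lean and of 9.23, 14.8 and 29.1 in obese libraries. Of the obese libraries, 7 were above the highest lean one and all 11 above the lean median. Its log2 fold change was 0.83 (95% interval 0.36 to 1.31) and the permutation p 0.00052. The region at chr2:106101-107900, 48390 bases away in CHID1, had 23.6, 36.9 and 54.9 in lean and 28.0, 52.2 and 103 in obese libraries, with 4 obese libraries above the highest lean one. Its log2 fold change was 0.42 (95% interval 0.08 to 0.77) and the permutation p 0.0216.

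**Figure D4:**
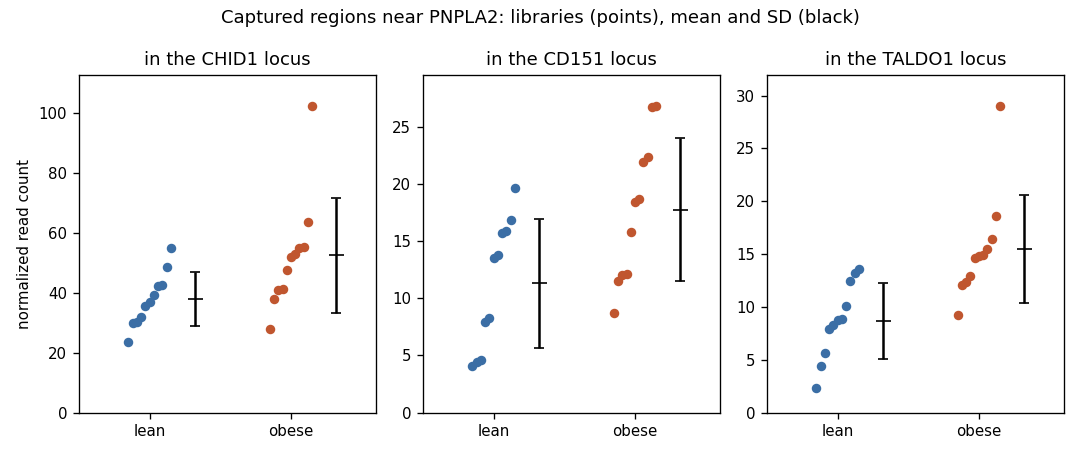
Normalized read count per library (y axis, linear from 0) in the 3 captured regions within 50000 bases of PNPLA2, for 11 lean and 11 obese libraries (x axis). Points are libraries, black bars the mean and SD, and the groups overlap in each panel.

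The counts behind these regions were small, from 2 to 156 reads in a library. Reads are the normalized count times the constant of the library in the file header, matched by order. This gave whole numbers within 0.05 for 100% of the counts of up to 5 in all 22 libraries. In 15 of them no other constant of the group did as well, and in the others this check cannot tell the order. The mean read count per bin over the genome, divided by the constant of each library, was 1.94 ± 0.351 in lean and 1.59 ± 0.417 in obese libraries, and this difference was not tested. With it as a covariate, a choice made after seeing the data, the log2 fold changes were 0.18, 0.63 and 0.72 in the order of the coordinates. None of the 3 then passed the threshold in limma (adjusted p 0.306, 0.0952 and 0.0730), nor did any of the 7401 regions, of which 3660 had an unadjusted p under 0.05. After scaling by the median of ratios over the regions they were 0.74, 0.99 and 1.12 (adjusted p 0.00390, 0.00350 and 0.00116 in limma), over 1.5 times the value above for the region in CHID1. The 3 regions were higher in obese pigs in each setting that gave a value.

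By RRBS, 3 regions lay within 50000 bases of the 10 genes in the table that required 5 pigs a group, and 5 in the table that required 3 pigs. In both tables they belonged to 2 of the 10 genes, PLIN4 and PNPLA2, while 5.01% and 16.0% of all loci had a region. The values are the authors' mean over a group, with no value per pig, so no error can be given, and the depth behind them is unknown. The region next to PNPLA2, at chr2:155858-155975, held 10 CpGs, among them 2 of the 3 in window A and all 3 in window B, with 35.8% methylation in lean and 47.4% in obese pigs, a difference of 11.6 percentage points. With 3 pigs required it ran from 155847 to 155970, with 35.5% and 48.6%. In both cases it lay in no locus, between PNPLA2 and the CRACR2B locus, which ends at -0.784 kb from the start of PNPLA2.

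The region at chr2:129196-129308 in TSPAN4, 26982 bases from PNPLA2, had 49.3% and 65.8%, and with 3 pigs required it ran from 128767 to 129308 with 45.8% and 58.8%. The table that required 3 pigs added a region at chr2:112694-113019 in CHID1, with 39.4% in lean and 54.2% in obese pigs, and one at chr2:179756-179963 in SLC25A22, with 12.7% and 33.3%. In both tables every region near PNPLA2 was more methylated in obese pigs, as were 66.1% and 61.1% of all regions in the tables that required 5 and 3 pigs.

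PLIN4 had a region at chr2:74788194-74788269, 22604 bases from its locus and in no other locus. It held 12 CpGs, with 11.4% methylation in lean and 23.9% in obese pigs, and 12.2% and 23.6% where 3 pigs were required.

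**Figure D5:**
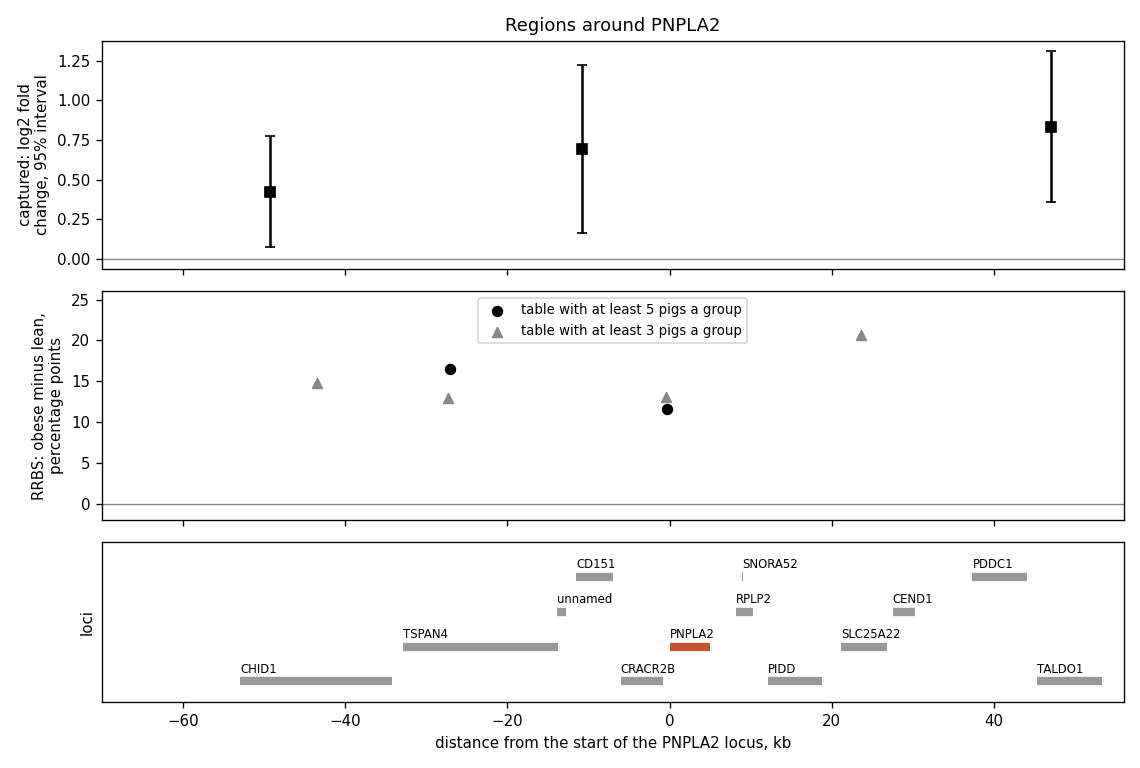
Surroundings of the PNPLA2 locus, with distance from its start in kb (x axis), the log2 fold change of captured regions with its 95% interval (top), the RRBS difference in percentage points without error (middle) and the neighbouring loci (bottom, PNPLA2 in orange). All 3 captured and all RRBS points lie above 0, and none lies within PNPLA2.

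The genes that held these regions were chosen by position. CHID1 had 19.9 ± 3.16 FPKM in lean and 25.1 ± 1.31 in obese pigs, CD151 60.6 ± 14.2 and 59.5 ± 10.7, TSPAN4 1.99 ± 0.616 and 1.77 ± 0.289, SLC25A22 7.01 ± 2.57 and 8.41 ± 2.51, and TALDO1 369 ± 77.7 and 409 ± 42.5. Their adjusted p-values in limma lay between 0.166 for CHID1 and 0.974 for CD151, beside 0.962 for PNPLA2 itself. Methylation and RNA were not paired by pig. The capture values stand in a fixed order without animal names beside them, and this order was used to match each library with the constants of the file header and not to assign a value to a pig. The RRBS values are group means.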

How the data were processed

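The authors mapped RNA reads to Sscrofa10.2 with STAR 2.3.1 and made the deposited FPKM values with Cufflinks 2.2.0, one table a library. RNA was stranded and ribosome-depleted. Entries that share an identifier were added up (52 entries), and 9 genes with a failed estimate were left out. FPKM was divided by median-of-ratios size factors, the mean of both libraries stood for pig-572, and log2(FPKM + 1) of the 10190 genes with a mean of at least 1 was fitted with limma 3.58.1 in R 4.3.3 (trend, Benjamini-Hochberg over all genes, threshold 0.05). Fold changes are on that log2 scale, which understates low genes. Single genes had a two-sided exact permutation test. The fit was tested on simulated data.

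For mDNAcap, the authors deposited diffReps regions with a normalized count signal for each library, without animal names. These were fitted with limma as log2(count + 1) over 7401 regions, and named regions had a permutation test with 100000 resamples. For RRBS, the authors mapped reads with Bismark 0.10 and deposited the methylation fraction of each group for regions found with metilene, from which percentages were taken. The FPKM loci are given as the files write them. The authors' own comparison columns, which hold fold changes and p-values, were not used. For pig-411 the label says obese, whereas the deposited comparison lists its library with the controls, so it was treated as lean in mDNAcap and RRBS. Pig-584 has no library in the deposited capture comparison.

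The genes and lists were chosen with earlier results of these data known. Every one of the 10 genes is named. From the related lists, genes with an unadjusted p under 0.05 (at most 20) and the most abundant gene of each list are named, with the 5 genes most like the mean of the 10 and every region within 50000 bases. Alternatives were another pseudocount, no filter, other scalings, other handling of pig-572, each pig left out, limma without trend, other distances and the RRBS table that required 3 pigs.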

Additional observations from a re-analysis of the deposited data

Results flagged for a closer look

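In 2 of 20 groups of 5 pigs, 1 pig stood apart from the other 4 by a gap of more than 0.71 of the range of the group, where chance gives about 1 in 20. PNPLA2 in obese pig-433 was at 82.1 FPKM, with the next obese pig at 50.6. CD36 in obese pig-473 was at 1913 FPKM, with the next at 1132.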

How the results depend on the processing

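No paired analysis was possible because the lean and obese groups hold different pigs and no label pairs a lean with an obese animal. The number of genes past the adjusted threshold in limma was 1, and it was 5 without the filter, 0 with FPKM as deposited (1396 at an unadjusted p under 0.05), 10 without the first library of pig-572 and 178 with both entered separately. Leaving out 1 pig gave between 1 and 164, the latter without lean pig-402. AQP7 stayed higher in obese pigs in all 18 alternatives, with 0.72 to 0.89 on the log2 scale when 1 pig was left out and 0.78 with both libraries of pig-572 entered separately, and its adjusted p ran from 0.0343 to 0.224. Its groups did not overlap in 17 of these, the exception being FPKM as deposited. Leaving out a pig, another pseudocount, no filter or no trend cannot make separate groups overlap. Only the other scalings and the other handling of pig-572 could have done so, and the count is no measure of robustness. TUSC5, PLIN1, PLIN4, CIDE-C, GPD1 and CD36 kept their direction in all 18 and did not pass the threshold. LIPE turned to -0.018 with FPKM as deposited, -0.013 without the second library of pig-572 and -0.0050 with both separate, and ran from -0.13 to 0.15 with 1 pig left out. PNPLA2 turned to 0.015 without the first library of pig-572 and ran from -0.19 to 0.056, and FACL2 from -0.059 to 0.48, with 1 pig left out. The causes were not tested.

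Of the captured regions, 7118 passed the threshold, 2058 where the mean normalized count was at least 20 (fewer regions, and of the 3 near PNPLA2 only the one in CHID1), 2932 after scaling by the median of ratios, and, in choices made after seeing the data, 3195 after scaling by the mean read count per bin and 0 with that count as a covariate. With the covariate the regions near PNPLA2 had log2 fold changes of 0.18, 0.63 and 0.72, after scaling by the mean read count per bin 0.72, 0.98 and 1.11, and after scaling by the median of ratios 0.74, 0.99 and 1.12. With other distances, 0 captured regions of 0 genes overlapped a locus or lay within 10000 bases, and 12 of 5 genes lay within 100000 bases. Of the RRBS regions, 0 of 0 genes overlapped a locus and 1 of 1 gene lay within 10000 bases. The shares of all loci at these other distances were not computed, so these counts cannot be set against them. With 3 pigs required there were 5 RRBS regions, and 0 of the regions with 5 pigs required differed by at least 20 percentage points. With 5 pigs a group, small differences were not detectable.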
